A study of Sus scrofa and Bos taurus with 31 samples.

Results

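The regions described here are stretches of the cattle genome with a peak of an assay for accessible chromatin (ATAC-seq) in every tissue that was profiled. No region was removed here for its sequence or place, so the members include 2 on the mitochondrial sequence and 329 on unplaced scaffolds. They were chosen by the measured peaks themselves: peaks of the 15 cattle libraries that share at least 1 bp were merged into regions, a region was called open in a tissue when each library of that tissue had a peak in it, and the members are the regions open in all 8 tissues. This rule selected 11628 of 504914 merged cattle regions. The cattle and pig lists together gave 1038858 merged regions. Because presence of a peak in every library chose the members, their number, width, fold and position are given as descriptions. Tests were made on openness in a tissue or animal left out of the choice, and on fold differences between animals and between tissue groups. Regions were merged from all 15 lists, so their extent includes peaks of the tissue or animal left out.

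ATAC-seq uses a transposase that inserts adapters where DNA is not wrapped tightly in nucleosomes, so that reads pile up over accessible chromatin. Chromatin that is accessible in every tissue is known above all from promoters of genes that all cells use and from sites bound by CTCF, a protein that separates chromatin domains. Chromatin accessible in a single tissue is known mostly from distal enhancers. No cattle annotation was used here, so the members are described by position, width and signal and not by gene.

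The cattle were 2 sexually mature intact male Line 1 Herefords with the same sire, M08 and M22, and the labels name no treatment. From both animals cryopreserved nuclei of liver, spleen, lung, skeletal muscle, adipose tissue, hypothalamus and cerebral cortex were profiled, and cerebellum came from M22 alone. A region was therefore open in cerebellum on the evidence of 1 library and in the other 7 tissues on the evidence of 2. Each tissue is a mixture of cell types, and more cells of a type and more signal per cell cannot be told apart in bulk samples.

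The libraries differed widely in how many peaks they had. The shortest list, from hypothalamus of M22, had 37204 peaks, the median list 113228 and the longest, from lung of M08, 221848, and the lists covered 17.5 to 167 Mb. Read depth was not used here. The hypothalamus of M22 stood apart as the shortest list, and with that library left out the rule gave 14626 regions instead of 11628. A total of 5740 regions had a peak in 14 of the 15 libraries, and 2999 of them (52.2%) lacked only the hypothalamus of M22, followed by 1049 that lacked only the adipose library of M08. No region with 14 peaks lacked only the lung of M22.

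Regions were unevenly spread over the classes by number of tissues. From 1 to 8 tissues the classes held 180555, 54148, 31571, 19245, 12636, 8490, 7290 and 11628 regions, so the class open everywhere was larger than those open in 6 or in 7 tissues. The number of members depended on the rule, from 1965 with peaks required to cover 50% of the region to 26434 with a peak in either animal taken as enough. Cerebellum alone supplied 109160 of the 1-tissue regions, which leaves 71395 that were open in 1 tissue other than cerebellum. These 71395 regions are given beside the full class below, since the 1 cerebellum library was not filtered by a second animal.

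**Figure D1:**
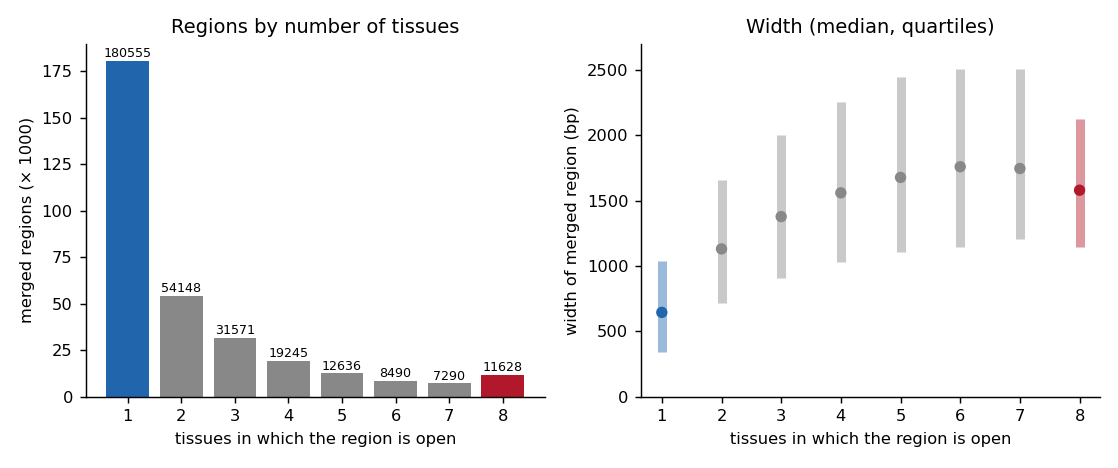
Left, the number of merged cattle regions (× 1000) open in 1 to 8 tissues. Right, the width of the merged regions in bp, with points for medians and bars for quartiles. The 11628 regions open in all 8 tissues are in red and the 180555 open in 1 tissue in blue, and the median width rises from 646 bp to 1760 bp at 6 tissues and is 1581 bp at 8.

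Members were broad. Their median width was 1581 bp, with quartiles of 1147 and 2123 bp, and 29.3% were wider than 2 kb. Regions open in 1 tissue had a median width of 646 bp (746 bp with those of cerebellum left out), and 3.35% of them were wider than 2 kb. The members were nevertheless narrower than the regions open in 7 tissues, with a median of 1747 bp. A merged region is the union of up to 15 lists, so its width grows with the number of libraries that have a peak in it, and the part of this in the difference was not tested. Members covered 20 Mb in all.

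Most members had a common centre. In 10813 of 11628 members (93.0%) there were bases that lay inside a peak of every library, with a median of 343 bp (quartiles 225 and 533 bp), or 25.3% of the width of the region. The middle of this shared stretch lay a median of 192 bp from the middle of the region. In 815 members no base was shared by all 15 libraries, and in 570 of these the best base lay in 14 of them. A single peak in each library was found in 9922 members (85.3%), so for most members the union was not built by joining separate peaks of one library.

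Within a single library, peaks in members were also wider than peaks in that library's own 1-tissue regions. The median number of peak bases per member was lowest in hypothalamus of M22, with 521, and highest in lung of M08, with 1183. In the regions open only in the same tissue the lowest was 230, again in hypothalamus of M22, and the highest 523, in spleen of M22. The ranges overlapped slightly between libraries, while within each of the 15 libraries the members were higher.

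Members took very different shares of the lists. Between 11837 and 12129 peaks per library lay in members, nearly the same number everywhere, as the rule sets. They were 31.8% of the peaks and 41.3% of the peak bases in the hypothalamus of M22, the shortest list. In the lung of M08, the longest, they were 5.42% of the peaks, and the lowest share of bases was 8.85% in cerebellum.

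The signal over the members differed between tissues. Fold enrichment is the ratio of the signal in a peak to the local background, and the level given here is the median over the 11628 members in a library, with the highest peak taken where a member held several. It was highest in liver, at 7.55 in M08 and 7.14 in M22, followed by skeletal muscle at 6.70 and 6.76 and cerebral cortex at 6.32 and 6.40. Lung had 5.40 and 5.91, the single cerebellum library 5.59, and spleen 4.87 and 5.54. Hypothalamus had 4.93 and 4.50, and adipose tissue was lowest with 4.20 and 3.79. Both liver libraries lay above all others and both adipose libraries below all others, whereas lung, cerebellum and spleen overlapped, as did spleen and hypothalamus.

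The 2 animals did not differ detectably in this level. The difference of M22 from M08 averaged -0.0026 ± 0.13 in log2 units (SD, n = 7 tissues), with 4 tissues higher in M22 and 3 higher in M08 (exact sign-flip permutation test over tissues, two-sided, p = 0.953). With 7 tissues this test cannot give a p below 0.0156. The mean level of the 3 brain tissues relative to the 5 other tissues was -0.037 on the log2 scale (exact permutation test over all 56 choices of 3 of 8 tissues, two-sided, p = 0.911).

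In every library the members had a higher fold than the regions open only in that tissue. The median over the latter ranged from 2.70 in the spleen of M22 to 5.15 in the liver of M08. The ratio of both medians was lowest in hypothalamus of M22, at 1.26, and highest in spleen of M22, at 2.05, and averaged 0.69 ± 0.24 on the log2 scale (SD, n = 15 libraries). With all lists cut to the same length this mean was 0.40, and with peaks covering 50% of the region 0.83. Hypothalamus and adipose tissue, where members had their lowest folds, also had the smallest ratios, from 1.26 to 1.42. The rule asked for a peak in all libraries, so this ratio describes what was selected and was not tested.

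**Figure D2:**
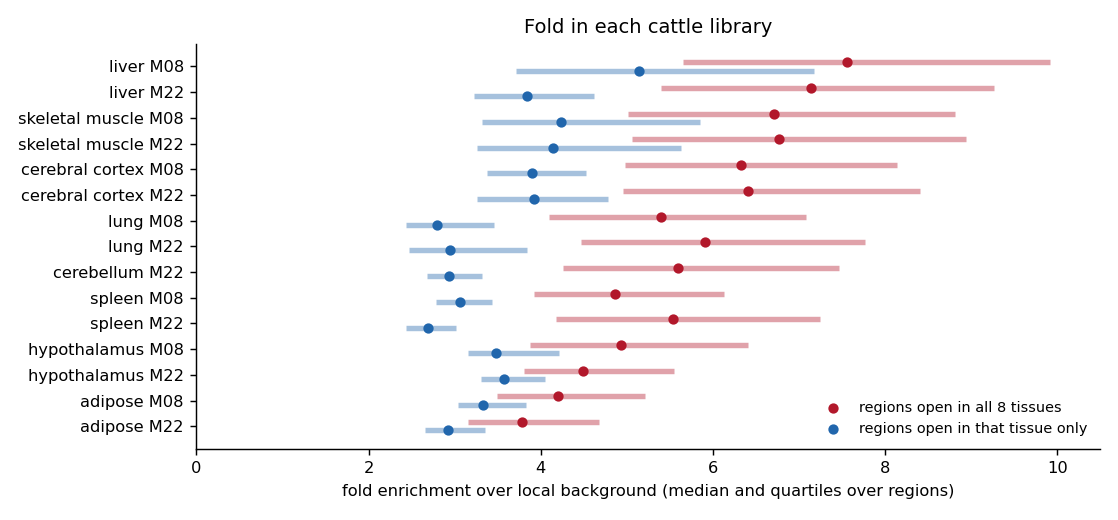
Fold enrichment over the local background in each of the 15 cattle libraries, ordered by tissue, over the regions open in all 8 tissues (red) and over those open in that tissue only (blue). Points are medians over regions and bars are quartiles. The red medians run from 3.79 in adipose tissue of M22 to 7.55 in liver of M08 and lie to the right of the blue ones in all 15 libraries.

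Whether openness elsewhere went with openness in a tissue that was not used to choose the regions was tested by leaving out each tissue in turn. Of regions open in all 7 other tissues, between 70.7% and 99.98% were also open in the tissue left out. Of regions open in exactly 1 other tissue, between 0.489% and 29.3% were. The difference was 84.7 ± 10.0 percentage points (SD, n = 8 tissues) and had the same sign in 8 of 8 tissues (exact two-sided sign-flip test, p = 0.00781, which is the lowest value that 8 tissues allow). The tissues share regions and animals, so the 8 differences are not independent. In each tissue the regions found open there and in all 7 others were the same 11628 members. Regions open in 1 tissue were also narrower than those open in 7 or 8, and in every library had lower folds than the members. The part of width and fold in the difference was not tested, so the p-value says only that the 8 differences share a sign. For the tissues other than cerebellum, the regions open in exactly 1 other tissue include those open only in cerebellum. Without cerebellum the difference was 79.2 percentage points, the lowest of the alternatives, and with lists of equal length 88.1, the highest. With peaks required to cover 50% of a region before it counted as open the difference was 86.2 percentage points.

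The tissues differed in how completely they followed the other 7. Lung was open in 11628 of 11630 such regions (99.98%), against 41.2% of all regions open in at least 1 other tissue. Cerebellum was open in 99.4% against a background of 47.2%, cerebral cortex in 98.6% against 17.7%, skeletal muscle in 98.3% against 22.4%, liver in 97.9% against 17.5% and spleen in 96.3% against 23%. Adipose tissue was open in 89.6% of the 12978 regions open in the others, against 12.6%. Hypothalamus was lowest, with 11628 of 16438 regions (70.7%) against 6.55%, and it is the tissue with the shortest list.

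**Figure D3:**
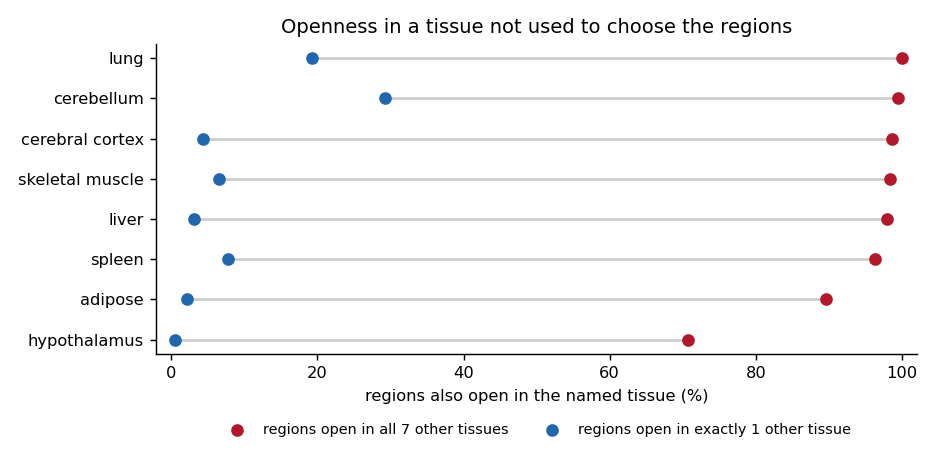
Share of regions (in %) that were open in the tissue named on the left, for regions open in all 7 other tissues (red) and in exactly 1 other tissue (blue). The red points lie between 70.7% in hypothalamus and 99.98% in lung, and the blue points between 0.489% and 29.3%.

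Peaks in a tissue were also higher and wider where the other tissues were open. Regions open in that tissue and in all 7 others are the 11628 members, so their openness in it was part of the choice. These differences repeat the comparison by library above for tissues and are descriptions, not tests. On the log2 scale the median fold was 0.70 ± 0.23 higher than in regions open in no other tissue (SD over 8 tissues). It was 0.39 higher when all lists were cut to the same length. The smallest difference was in adipose tissue, with a fold of 3.98 against 3.11, and the largest in lung, with 5.65 against 2.87. The median number of peak bases was 1.16 ± 0.16 higher in log2 units (SD over 8 tissues). In lung it was 1184 against 498 bases and in hypothalamus 606 against 290 bases, and all 8 tissues had the same sign in both measures.

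Whether openness carried over was also asked between the animals. Regions were merged from the lists of both animals and chosen by the peaks of M22 alone, and 16130 had a peak in all 8 of its libraries. Of these, between 84.4% in adipose tissue and 99.7% in lung had a peak in the same tissue of M08. Of the regions with a peak of M22 in that tissue only, between 2.07% in hypothalamus and 50.1% in lung did. The difference averaged 70.6 ± 16.7 percentage points (SD, n = 7 tissues, exact sign-flip test, p = 0.0156, the lowest that 7 tissues can give). The share over all merged regions is not given here, and the part of peak width and strength in this difference was not tested. In 72.1% of the 16130 regions M08 had a peak in all 7 of its tissues.

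Members kept much of their order by fold from tissue to tissue. The median member had 2.00 times as much fold in its highest tissue as in its lowest, with quartiles of 1.69 and 2.40, and 5825 members (50.1%) had less than 2 times. This ratio includes the differences in level between libraries. With each fold divided by its library's median over the members, the median ratio was 1.60. Across the members, the lowest fold over the 15 libraries had a median of 3.50. Spearman's rho over the 11628 members averaged 0.84 ± 0.086 for the 7 pairs of libraries of one tissue and 0.68 ± 0.079 for the 98 pairs of different tissues (SD over pairs). Points of one library share its depth and background, and rho is given as a description.

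Libraries of one tissue were mostly nearest to each other by fold over the members. Partner libraries differed in list length, more in some tissues than in others, and the part of list length in rho was not tested. For 12 of the 14 libraries with a partner from the other animal, the library with the highest rho was that partner. Lung had the closest pair, with rho 0.94, and skeletal muscle followed with 0.93. The exceptions were the hypothalamus of M08, nearest to the cerebral cortex of M22 (0.79), and the spleen of M22, nearest to the lung of M08 (0.83). The single cerebellum library was nearest to the cerebral cortex of M22 (0.78). Pairs of different brain tissues averaged 0.71, pairs of other tissues also 0.71 and pairs across both groups 0.64.

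A minority of members had a scaled fold that set a tissue apart from all other libraries. For this the fold of each member was divided by the median of its library over the members, and a member counted when each library of a tissue lay above, or below, every library of the other tissues. Adipose tissue was above the rest in 553 members (4.76%) and below in 259 (2.23%). Skeletal muscle was above in 446 (3.84%) and below in 712 (6.12%), and liver above in 416 (3.58%) and below in 835 (7.18%). Both tissues with the highest fold therefore had more members below the rest than above after this scaling, and the counts depend on it. Without scaling, the adipose libraries of M08 and M22 had the highest fold of all libraries in 29 and 8 members and the lowest in 1500 and 5733. The liver libraries of M08 and M22 had the highest in 3798 and 2044 members and the lowest in 48 and 27.

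The remaining tissues with 2 libraries had smaller or more even counts. Hypothalamus was above in 419 members (3.6%) and below in 272 (2.34%), lung above in 413 (3.55%) and below in 378 (3.25%), spleen above in 234 (2.01%) and below in 197 (1.69%), and cerebral cortex above in 178 (1.53%) and below in 237 (2.04%). Cerebellum had 1127 (9.69%) above and 1094 (9.41%) below, but it needs only 1 library to stand apart and its counts cannot be set against the others. A gap of at least 2 times over every other library was seen in 2 members for cerebellum, in 1 for skeletal muscle and in none for the other 6 tissues. These shares are of the members alone and were not tested.

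The 3 members whose fold varied most between tissues had their highest tissue in cerebellum or cerebral cortex. A 2744 bp region on chromosome 15 from 27064784 to 27067527 (ARS-UCD1.2 coordinates, as all that follow) had the largest ratio on placed chromosomes. Its fold was 15.6 in cerebellum, 11.7 and 14.3 in cerebral cortex of M08 and M22, and 9.44 and 7.39 in hypothalamus. In liver it was 2.86 and 2.77, which makes the tissue mean 5.54 times higher in cerebellum than in liver. The brain libraries other than the hypothalamus of M22 lay above all the rest, in which skeletal muscle came next with 7.40 and 7.98.

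The next such region, on chromosome 6 from 109115042 to 109117240, had its highest fold in cerebral cortex, with 12.3 in M08 and 14.2 in M22. Spleen was lowest there, with 2.73 and 2.28, and the ratio of the tissue means was 5.30. The third, on chromosome 22 from 59322789 to 59326006, had a fold of 14.5 in cerebellum and 11.8 and 13.4 in cerebral cortex. Lung had 2.61 and 2.92, a ratio of 5.26. Brain tissues did not stand together there, since spleen, with 10.8 and 8.50, lay above hypothalamus, with 4.56 and 6.75. At this region the animals were far apart in liver, with 4.55 in M08 and 11.6 in M22, so its level in liver is uncertain. These 3 regions had short shared stretches, of 156, 24 and 200 bases.

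The members with the highest fold in their weakest library were, in contrast, short and nearly constant. On placed chromosomes the leading region was 289 bp long, on chromosome 4 from 49187003 to 49187291. Its fold was 22.1 in its lowest library, 23.4 in the median and 25.0 in its highest, so its highest tissue was only 1.12 times above its lowest. A 447 bp region on chromosome 1 from 6042785 to 6043231 had 18.3, 20.2 and 21.5, and a 477 bp region on chromosome X from 53971939 to 53972415 had 16.7, 17.3 and 18.6. In both of these the highest tissue was 1.09 times above the lowest, against 2.00 times for the median member. Whether such short regions with a high and nearly constant fold are accessible chromatin was not tested.

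The widest members on placed chromosomes had low folds. A 6827 bp region on chromosome X from 84665052 to 84671878 had a fold of 2.04 in its lowest, 2.22 in its median and 3.52 in its highest library, and all libraries shared 3483 of its bases. A 6631 bp region on chromosome 18 from 34870990 to 34877620 had 2.45, 3.44 and 5.72, with 284 shared bases. A 6215 bp region on chromosome 2 from 121566779 to 121572993 had 2.28, 2.63 and 2.74, with 4371 shared bases. The fold of a broad peak is an average over its length, and over all members fold fell with width. The 1710 members of 500 to 1000 bp had a median fold of 7.80, the 2957 of 1500 to 2000 bp 5.43 and the 842 of at least 3000 bp 3.82.

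Unplaced scaffolds, which are assembled sequences not assigned to a chromosome, held more members than their share of regions. They carried 329 members, or 2.83% (95% Wilson interval 2.54 to 3.15, counting error only), against 0.521% of 1-tissue regions (0.489 to 0.555) and 0.261% of 1-tissue regions other than those of cerebellum. Regions open in 7 tissues had 1.25% (1.02 to 1.53) as a whole but were mixed. Those that lacked hypothalamus had 0.416%, those that lacked adipose tissue 0.815%, and the 1130 that lacked another tissue 5.31% (4.15 to 6.78), above the members. Of the 3055 merged regions on unplaced scaffolds 10.8% were members, against 2.23% of the 492272 on autosomes. The members lay on 198 of the 668 scaffolds with any region, 129 scaffolds had a single member, and no scaffold had more than 8. The unplaced share was 1.54% with lists of equal length, 5.13% at a q limit of 0.0001 and 7.07% with peaks covering 50% of the region.

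Members on unplaced scaffolds were frequent among those with the highest folds. Of the 10 members with the highest fold in their weakest library, 8 were on unplaced scaffolds, as were 43 of the first 100 and 70 of the first 500. The leading 3 were 301, 344 and 320 bp long. The first had a fold of 25.9 in its lowest library, 28.7 in the median and 30.2 in the highest, the second 23.1, 26.7 and 29.5, and the third 21.1, 25.8 and 29.1. Of the 227 members under 500 bp, 56 (24.7%) were unplaced. Whether the high folds of these unplaced members reflect accessible chromatin was not tested.

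The median fold on unplaced scaffolds differed less between libraries than that on autosomes. Over the 329 unplaced members the median fold ranged from 4.64 in skeletal muscle of M22 to 5.72 in liver of M08, whereas over the 10996 autosomal members it ranged from 3.76 in adipose tissue of M22 to 7.60 in liver of M08. It was lower than on autosomes in 10 libraries and higher in 5, both of adipose tissue, both of hypothalamus and the spleen of M08. The extremes were 0.683 times the autosomal level in skeletal muscle of M22 and 1.28 times in adipose tissue of M22. The median unplaced member had a ratio of 1.37 between its highest and lowest tissue, against 2.01 on autosomes and 1.95 on X. With each fold divided by its library's median over the members the order was the opposite, with ratios of 1.87 on unplaced scaffolds, 1.58 on autosomes and 1.61 on X. That divisor is taken over all members, which are mostly autosomal. It ran from 3.79 to 7.55 between libraries, more widely than the unplaced medians, so the scaled ratios and counts depend on it. Of the 553 members in which adipose tissue stood above the rest after scaling, 93 were unplaced, and of those for skeletal muscle and liver none were.

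Along the placed chromosomes, members had a mean density of 4.42 per Mb of autosome, with chromosome length taken as the end of the last peak. Chromosome 23 was densest with 330 members, or 6.29 per Mb, followed by chromosome 18 with 5.77 and chromosome 5 with 5.33. Chromosome 12 was sparsest among the autosomes with 268 members, or 3.07 per Mb, below chromosome 20 with 3.38 and chromosome 6 with 3.48. The densest autosome thus had 2.05 times the density of the sparsest. Chromosome X had 301 members, or 2.17 per Mb, which is 0.490 times the autosomal density. The X was also sparse in 1-tissue regions, at 0.433 times their autosomal density, and in regions open in 7 tissues, at 0.425 times.

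The relation of this density to that of 1-tissue regions depended on cerebellum. Over the 29 autosomes, members per Mb and 1-tissue regions per Mb ran in opposite directions, with Pearson's r of -0.69 and Spearman's rho of -0.72. With the regions open only in cerebellum left out, both ran together, with r = 0.63 and rho = 0.65. Chromosome 18, second in members, had the lowest density of 1-tissue regions, 49.2 per Mb, but with cerebellum left out it had 36.2 per Mb, above the median of 29.7. Chromosome 12 had the highest density of 1-tissue regions, 82.8 per Mb, and 22.8 without cerebellum. Regions open in 7 tissues followed the members, with r = 0.74 and rho = 0.80. All classes come from the same 15 lists, and these coefficients are descriptions.

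**Figure D4:**
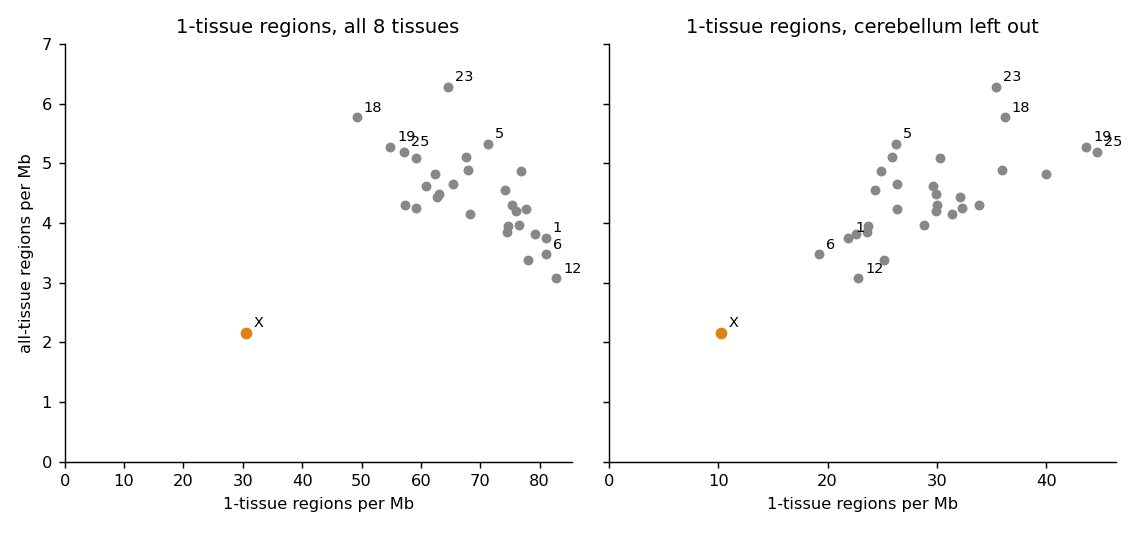
Density of regions open in all 8 tissues (vertical axis, per Mb) against that of regions open in 1 tissue (horizontal axis, per Mb) on the 29 autosomes (grey) and X (orange), with the number of some chromosomes beside the points. The autosomes fall from chromosomes 18 and 23 to chromosome 12 on the left, where all 1-tissue regions are counted, and rise on the right, where regions open only in cerebellum are left out.

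Members were clustered along the chromosomes. The Morisita index compares pairs of regions in a shared 1 Mb window with the number that an even random scatter would give, for which it is 1. It was 1.60 for members, 1.97 for regions open in 7 tissues, 1.14 for 1-tissue regions and 1.38 for 1-tissue regions other than those of cerebellum. The 12083 regions open only in skeletal muscle, a class of nearly the same size, had an index of 1.92. Regions open only in cerebellum, at 1.66, and only in spleen, at 2.47, were also above the members. The other 5 single-tissue classes were below, with adipose tissue at 1.23, cerebral cortex at 1.32, hypothalamus at 1.41, liver at 1.46 and lung at 1.49, so members lay within the range of the single-tissue classes.

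Neighbouring members were less often close than regions open only in skeletal muscle. The gap to the next member had a median of 93.9 kb, with quartiles of 37.6 and 229 kb, and 6.12% of gaps were under 10 kb. For the regions open only in skeletal muscle the median gap was 60.4 kb and 15.5% were under 10 kb. The longest stretch without a member was 6.94 Mb, whereas it was 10.9 Mb for the regions of skeletal muscle. Members thus had fewer close pairs and a shorter longest gap than that class.

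Of 2641 windows of 1 Mb, 425 (16.1%) had no member, the median window had 3, and the 264 fullest windows held 29.6% of the members. The fullest window was on chromosome 5 from 57000001 to 58000000 with 26 members. The next was on chromosome 8 from 59000001 to 60000000 with 23, and 5 windows on chromosomes 3, 5, 10, 22 and 23 had 22 each, of which that on chromosome 10 from 36000001 to 37000000 is the third by the order of names. Windows with more members had fewer 1-tissue regions, from a mean of 76.7 in windows without a member to 51.8 in the 56 windows with at least 15. With the regions open only in cerebellum left out the mean rose instead, from 10 in windows without a member to 41.4 in the 204 windows with 10 to 14, and was 39.2 in the 56 fullest.

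Members were spread nearly evenly from one end of the autosomes to the other. When each autosome was divided into 10 parts of equal length from its first base, the parts held between 8.87% and 11.8% of the autosomal members, with 10.4% in the last. Regions open in 7 tissues rose to 14.1% and 16.5% in the last 2 parts, and 1-tissue regions other than those of cerebellum to 12.3% and 15.2%. Regions open only in cerebellum fell to 8.29% and 5.38% there. Among the regions open in 7 tissues, the excess at the end was largest in the 4810 that lacked only hypothalamus, of which 33.2% lay in the last 2 parts, against 22.2% of members.

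**Figure D5:**
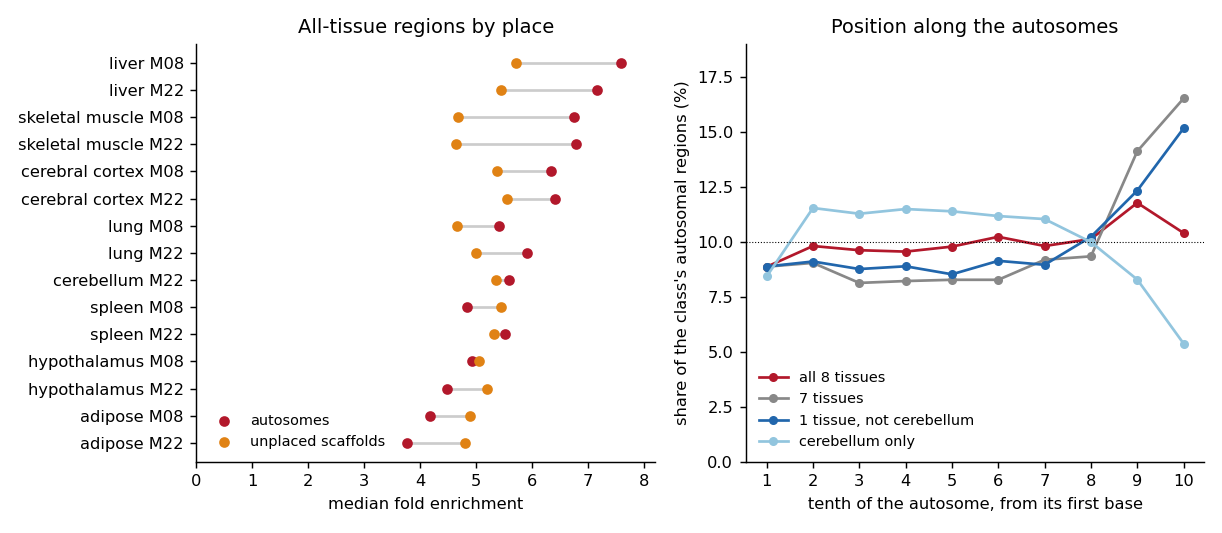
Left, median fold enrichment in each library over the regions open in all 8 tissues that lie on autosomes (red) and on unplaced scaffolds (orange), where the orange points stay between 4.64 and 5.72. Right, share (in %) of a class's autosomal regions in each of 10 equal parts of the autosome counted from its first base, with a dotted line at 10%, for regions open in all 8 tissues (red), in 7 tissues (grey), in 1 tissue other than cerebellum (blue) and in cerebellum only (light blue). The red line ends at 10.4% in the last part, where the grey one reaches 16.5%.

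The members just inside the rule are given by the lowest folds, and the regions just outside by a missing library. The lowest folds of any member were those of both regions on the mitochondrial sequence, which is no nuclear chromatin, from 22 to 10415 and from 10985 to 16335. Their fold was 1.41 in the lowest, 1.52 in the median and 1.59 in the highest library for the first, and 1.51, 1.65 and 1.76 for the second. The first was the widest of all members at 10394 bp. The weakest member on a chromosome was a 752 bp region of chromosome 17 from 71014044 to 71014795, with 1.83, 2.19 and 2.79.

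Over all 5740 regions with a peak in 14 libraries, the lowest fold had a median of 2.82 (5th to 95th percentile 2.25 to 3.98), against 3.50 (2.53 to 5.78) over the members, so the class just outside was the weaker one. The 3 of these 5740 regions with the highest minimum fold were taken for their strength and do not stand for the class. All 3 lay on chromosome X and lacked a peak in the hypothalamus of M22. The first, from 87951035 to 87951639, had a fold of 8.15 in the hypothalamus of M08, its lowest value, 13.9 in the median library and 18.1 in the liver of M08, its highest. The second, from 87186557 to 87187095, had 6.34, 9.85 and 17.2, and the third, from 94949708 to 94950591, had 6.25, 9.10 and 14.2.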

How the data were processed

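ATAC-seq peak lists of 15 cattle libraries were analysed, and 16 pig lists were used for the totals and for a side-by-side description. Per the study's methods and the submitters' processing notes, the tools were Trim Galore 0.4.5, BWA 0.7.17, SAMtools 1.10 and Picard 2.18.17. These steps are described for ChIP-seq reads. Any shift of reads for the transposase is not given in the sources used here. The authors called broad peaks with MACS2 at a q limit of 0.05, on ARS-UCD1.2 for cattle. The deposited lists used here hold 1 library each, and the study's peaks from pooled replicates were not used here. Each list has 9 columns. The deposited score was not used as a measurement. The fold enrichment is the ratio to local background that the authors' caller wrote, averaged over a broad peak. The deposited −log10 p-value was not used, and the deposited −log10 q-value served only for stricter limits and for lists of equal length.

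Peaks sharing 1 bp were merged. The fold of a region in a library with several peaks was that of the highest (a mean weighted by width in an alternative). Depth is unknown from the lists. Deeper sequencing can add weak peaks to a list, and list length was not adjusted for it. Tests were exact permutation tests over tissues with a threshold of 0.05, in Python 3.11.15 with numpy 2.4.6 and pandas 2.3.3. The number of members, the animal difference and the fold differences were checked on simulated lists. The shares in a tissue or animal left out and the brain comparison were not checked on them. The members, classes and tests were chosen with earlier results of these data known. Libraries of one animal are paired by its name. Over the 21 pairs of tissues, deviations of M22 from M08 in the members' fold correlated between -0.33 and 0.20 (median -0.036). Regions were named by a fixed rule: the 3 highest by minimum fold, the 3 widest and the 3 with the largest tissue ratio on placed chromosomes, the 3 highest by minimum fold on unplaced scaffolds, the 3 lowest members, the 3 strongest regions with 14 peaks, the 3 fullest windows and the densest and sparsest chromosomes. Unplaced scaffolds are not named. Gene lists, TSS distances, base composition and sequences for cattle were not analysed here. Alternatives were q limits of 0.01 and 0.0001, lists cut to 37204 peaks, merging across 500 bp, peaks covering 50% of a region, a peak in either animal, autosomes only, windows of 100 kb and 5 Mb, the weighted fold, a replicate block, and leaving out cerebellum, an animal or a library. Leaving out the mitochondrial sequence was added after the data were seen.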

Additional observations from a re-analysis of the deposited data

How the results depend on the processing

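The tests on the share open in a tissue left out and on the share with a peak in the animal left out kept their sign. They stayed past the threshold in all alternatives run (26 and 24). The differences in fold and in peak bases between members and 1-tissue regions, given by tissue, kept their sign in all 27 and 26 alternatives. The difference between animals and that between brain and other tissues never passed the threshold (lowest p 0.5 and 0.714). With a replicate block for the animal, the paired fit gave -0.037 for brain against other tissues (exact permutation test, p = 0.911), and dropping the pairing left the animal difference at -0.0026 (p = 0.990). Neither call changed. The animal difference turned sign at q under 0.01 (0.00014), with peaks covering 50% of a region (0.0082) and without single libraries, with a range of -0.034 to 0.027, and the brain difference turned with a peak in either animal (0.035). The number of members was 7623 at q under 0.01, 3371 at q under 0.0001, 7228 with lists of equal length, 1965 with peaks covering 50% of the region and 26434 with a peak in either animal, and 11613 to 16025 without a replicate or library. Median width was 1463, 1324, 1428 and 1172 bp in the first 4 of these settings and 1392 to 1606 bp without a replicate or library. The unplaced share was 3.53%, 5.13%, 1.54%, 7.07% and 2.06% in the same 5 settings, in that order, and 2.36% to 2.97% without a replicate or library. The Morisita index was 1.85 with lists of equal length, 1.83 in windows of 100 kb, 1.27 in windows of 5 Mb and 1.45 to 1.74 without a replicate or library. The mean log2 ratio of fold in members to that in 1-tissue regions was 0.40 with lists of equal length, 0.54 with a peak in either animal, 0.58 at q under 0.0001, 0.83 with peaks covering 50% of the region and 0.66 to 0.73 without a replicate or library. The cause of these changes was not tested. Leaving out the mitochondrial sequence changed no call.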

Other observations

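In pigs, where each of the 8 tissues had 2 libraries, the same rule gave 16833 regions. Their median width was 1829 bp (quartiles 1320 and 2513), against 823 bp for regions open in 1 tissue and 2037 bp for those open in 7. The pig regions lay at 7.13 per Mb of autosome and at 2.91 per Mb of chromosome X, a ratio of 0.408, and 48 lay on chromosome Y and 4 on the mitochondrial sequence. On unplaced scaffolds lay 1.59% of them, against 1.34% of the 1-tissue regions and 2.82% of those open in 7 tissues. The Morisita index in 1 Mb windows was 1.66, and 19.9% lay in the last 2 of 10 equal parts of the autosomes. The median fold over these regions ranged from 3.58 in adipose tissue of P348 to 6.78 in liver of P348, and both pig liver libraries lay above all other pig libraries. The pigs were Yorkshire littermates, castrated males that were younger than the intact Hereford cattle. The species thus differ in breed, castration and age as well as in assembly and in the number of cerebellum libraries, and no test between them was made.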
